A study of Arabidopsis thaliana with 22 samples.

Results

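Nuclear genes for the photosystems and their antenna proteins were examined in RNA-seq libraries of whole 5-day-old Arabidopsis seedlings. The list held 42 of the 27416 genes in the deposited count tables. It was written from gene function, not from measured values, but with earlier results of these data known. It comprised 6 genes of the photosystem I antenna (LHCA), 9 genes of the trimeric photosystem II antenna (LHCB1, LHCB2 and LHCB3, hereafter LHCB major), 5 genes of the monomeric photosystem II antenna (LHCB4, LHCB5 and LHCB6, hereafter LHCB minor), 12 genes of photosystem I subunits (PSA) and 10 genes of photosystem II subunits (PSB). All 42 genes passed the filter on low counts in every comparison.

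Photosystem II splits water and passes electrons towards photosystem I, which reduces ferredoxin, and antenna proteins that bind chlorophyll and carotenoids collect light for both. The core subunits that carry the reaction centres are encoded in the chloroplast, whereas the antenna proteins and most peripheral subunits are encoded in the nucleus and imported. Transcripts of the nuclear genes are known to be abundant in green tissue, to rise with light and to follow the circadian clock.

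The libraries came from Col-0, the wild-type accession, and from hda15, ahl22, frs7 frs12 and ahl22 frs7 frs12, with 2 libraries of each mutant. The ahl22-1, frs7-1, frs12-1 and hda15-1 alleles affect AHL22, an AT-hook protein of the nuclear matrix, the related transcriptional repressors FRS7 and FRS12, and the histone deacetylase HDA15. The ahl22 frs7 frs12 mutant was made by crossing and carries the ahl22, frs7 and frs12 mutations, and no treatment is stated for any group. The study asked how these proteins act together on gene expression and hypocotyl growth, in days of 16 h light and nights of 8 h. The 16 columns of the 4 count tables held 12 distinct libraries of 12537767 to 21400580 counts, because the ahl22, frs7 frs12 and hda15 tables repeat a single pair of Col-0 libraries (the shared Col-0 pair). A different Col-0 pair (the second Col-0 pair, libraries a and b) stands in the ahl22 frs7 frs12 table, and its columns match no replicate number in the labels. Comparisons that use the same Col-0 pair share their control samples and are not independent of each other.

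The Col-0 pairs stood apart, so counts of members called in a mutant are given against both. Some values of single genes and of other gene lists are given against a single pair. Of all genes tested, 48.9% differed between the Col-0 pairs at an adjusted p below 0.05 in edgeR's quasi-likelihood test. AHL22 itself had 16.8 and 18.5 CPM (counts-per-million, scaled by TMM over the 12 libraries) in the shared pair, 2.992 and 2.998 in the second pair, 0.844 and 1.06 in ahl22, 0.974 and 1.66 in ahl22 frs7 frs12, 1.45 and 1.75 in frs7 frs12, where AHL22 is not mutated by label, and 12 and 15.8 in hda15. FRS7 had 8.01 to 11.4 CPM in the mutants that carry frs7-1 and 13.7 to 20.4 in the other 8 libraries. FRS12 fell to between 3.60 and 4.18 CPM in frs7 frs12 and ahl22 frs7 frs12, and HDA15 was at 3.56 CPM in both hda15 libraries against 33.9 to 56.5 elsewhere. Of 20 root marker genes, 12 had a read in every library (PLT1, PLT2, WOX5, RHD6, COBL9, EXPA18, NRT2.1 and IRT1 were at 0 in some), and their summed level was 319 to 325.1 CPM in the shared Col-0 pair, 253.1 to 265.9 in hda15 and 102.5 to 146.3 in the other 8 libraries. Of 15 shoot marker genes, 14 had a read in every library, with CLV3 at 0 in some, and their summed level was 1401 to 1537 CPM in hda15, 1107 to 1134 in the shared Col-0 pair and 1058 to 1308 in the other 8 libraries. Summed evening clock genes were at 279.4 to 315.6 CPM in the shared Col-0 pair, 100.7 to 102.3 in the second, 177.7 to 179.1 in ahl22, 134 to 144.1 in frs7 frs12, 102.7 to 104 in ahl22 frs7 frs12 and 75.46 to 81.68 in hda15. The root markers differed by unlike amounts between the Col-0 pairs. TIP2.3 had 807 and 671 counts in the shared pair and 14 and 21 in the second, whereas SHR had 348 and 315 against 319 and 305. Their sum is therefore not a measure of root content alone. The part of root content and of time of day in the differences below was not tested.

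**Figure D1:**
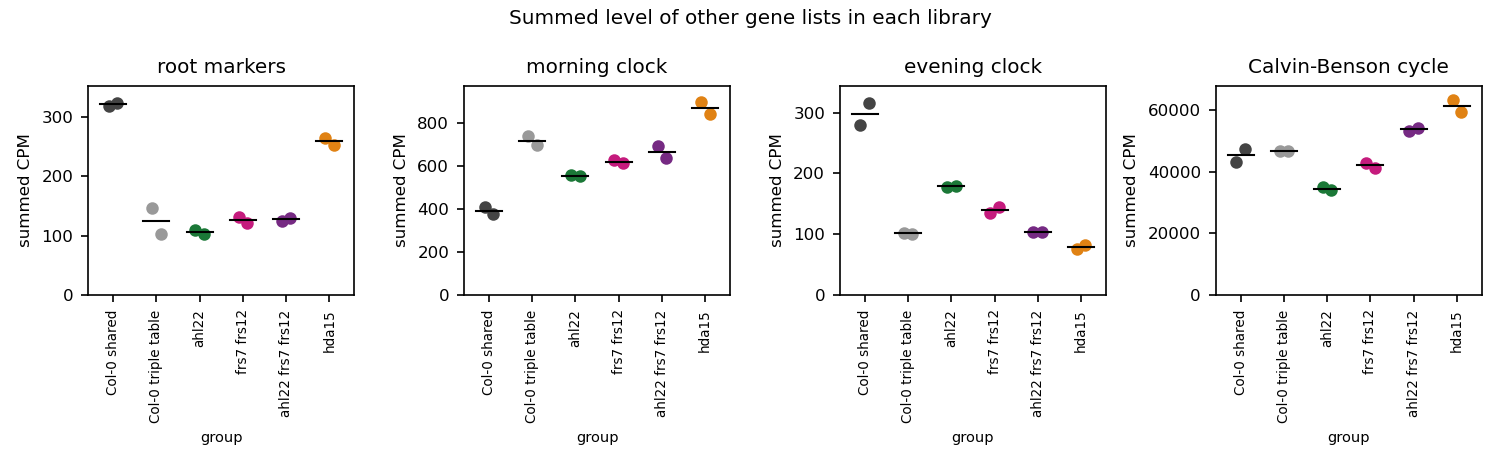
Summed CPM of root marker, morning clock, evening clock and Calvin-Benson cycle genes, with a point for each of the 12 libraries by group. Root markers were highest in the shared Col-0 pair (319 to 325.1 CPM), and Calvin-Benson cycle genes were lowest in ahl22 (33850 to 35040 CPM).

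The 250 bases before the annotated start are shown for the members on which the results turn: the LHCB2 genes and LHCB4.2, which fell in mutants, and PSAK and PSAN, whose levels separated sets of libraries. Sequences are from RefSeq's TAIR10.1 assembly, 5' to 3' on the strand of the gene. Capitals mark matches, on either strand, to the I-box GATAAG, the CCAATC element, the G-box CACGTG and the CCA1-binding site AAAAATCT, and the letters of these motifs do not overlap in the windows shown. LHCB2.1 (AT2G05100) is at chr2:1824481-1824730, minus strand, LHCB2.2 (AT2G05070) at chr2:1800473-1800722, minus strand, and LHCB2.3 (AT3G27690) at chr3:10255656-10255905, plus strand. LHCB4.2 (AT3G08940) is at chr3:2717307-2717556, plus strand, PSAK (AT1G30380) at chr1:10721933-10722182, plus strand, and PSAN (AT5G64040) at chr5:25629709-25629958, minus strand.
LHCB2.1: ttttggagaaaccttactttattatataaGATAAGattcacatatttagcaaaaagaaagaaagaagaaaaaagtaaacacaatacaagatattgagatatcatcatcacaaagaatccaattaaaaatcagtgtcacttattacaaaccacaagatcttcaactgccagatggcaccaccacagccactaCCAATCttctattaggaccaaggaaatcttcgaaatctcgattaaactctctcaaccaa
LHCB2.2: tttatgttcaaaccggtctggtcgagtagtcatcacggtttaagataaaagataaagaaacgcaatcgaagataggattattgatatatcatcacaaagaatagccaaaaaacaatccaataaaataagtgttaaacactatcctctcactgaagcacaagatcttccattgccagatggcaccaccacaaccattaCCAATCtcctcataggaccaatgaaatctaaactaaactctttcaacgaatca
LHCB2.3: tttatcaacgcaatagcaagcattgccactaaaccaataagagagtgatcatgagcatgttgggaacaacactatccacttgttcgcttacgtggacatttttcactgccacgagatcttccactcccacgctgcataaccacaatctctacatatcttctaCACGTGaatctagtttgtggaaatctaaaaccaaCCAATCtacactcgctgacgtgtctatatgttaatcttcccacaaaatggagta
LHCB4.2: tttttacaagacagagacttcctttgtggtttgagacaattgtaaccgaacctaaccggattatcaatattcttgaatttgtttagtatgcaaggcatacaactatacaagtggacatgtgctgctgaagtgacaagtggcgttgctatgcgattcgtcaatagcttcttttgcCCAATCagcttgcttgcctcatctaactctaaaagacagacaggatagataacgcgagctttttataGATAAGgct
PSAK: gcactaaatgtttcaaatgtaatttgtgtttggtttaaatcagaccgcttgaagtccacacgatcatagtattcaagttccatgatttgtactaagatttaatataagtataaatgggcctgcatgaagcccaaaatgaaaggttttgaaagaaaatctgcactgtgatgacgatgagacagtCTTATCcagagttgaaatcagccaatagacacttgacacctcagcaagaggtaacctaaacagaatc
PSAN: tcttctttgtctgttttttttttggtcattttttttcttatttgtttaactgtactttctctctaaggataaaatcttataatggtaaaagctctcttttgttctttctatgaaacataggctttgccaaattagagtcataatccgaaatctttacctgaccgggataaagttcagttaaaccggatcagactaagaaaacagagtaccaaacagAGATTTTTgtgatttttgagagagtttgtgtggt
LHCB2.1 and LHCB2.2 lie 22517 bases apart on chromosome 2, and their upstream windows were 64.4% identical. Both hold a CCAATC element, 59 and 53 bases before the start, but the I-box of LHCB2.1, 221 bases before the start, has no match in the window of LHCB2.2. Among all members, 11 of 42 windows (26.2%) held the CCAATC element, 9 (21.4%) the I-box, 8 (19.0%) the G-box and 5 (11.9%) the CCA1-binding site, whereas 2711 of the windows of 26713 genes held the CCAATC element, 12.2% the I-box, 6.58% the G-box and 6.74% the CCA1-binding site. The evening element AAAATATCT was found in 1 window (2.4%, as in 2.4% of all genes), and CACGCGC, a site bound by the FRS-related factors FHY3 and FAR1, in 0 of 42 windows against 1.08% of all. These matches describe the letters of the windows and show no binding.

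The members held 17.7% to 22.2% of all counts of a library, of which the LHCB major genes alone held 8.91% to 11.6%. Per length, as RPKM (CPM per kilobase of exon), 32 of the 50 genes with the highest mean over the 12 libraries were members, among 26714 genes compared. LHCB1.3 (AT1G29930), which encodes a major antenna protein, was at 31257 ± 3325 RPKM (SD, n = 12 libraries of all groups), the highest member, followed by LHCB1.5 (AT2G34420) at 19772 ± 2802 RPKM. PSBR (AT1G79040), a small lumenal subunit of photosystem II, was at 9756 ± 1762 RPKM and LHCB1.2 (AT1G29910) at 9550 ± 1350, and their order varied between libraries.

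LHCA1 (AT3G54890) and LHCA4 (AT3G47470), which pair in the photosystem I antenna, had 5397 ± 747 and 5388 ± 591 RPKM. Their order depended on the library, with LHCA1 above LHCA4 in the shared Col-0 and hda15 libraries and below it in all others. PSAG (AT1G55670), a membrane subunit next to that antenna, had the highest level of the PSA group (5028 ± 754 RPKM), and LHCB5 (AT4G10340), the monomeric antenna protein CP26, the highest of the LHCB minor group (4672 ± 364 RPKM). LHCA5 (AT1G45474) and LHCA6 (AT1G19150), which link photosystem I to the NDH complex, were far lower, at 91.5 ± 18.8 and 50.1 ± 13.6 RPKM. LHCB4.3 (AT2G40100), a CP29 isoform, was lowest at 2.63 ± 0.60 RPKM, from at least 24 counts in a library. The ratio of the highest to the lowest library was 4.56 for LHCB2.1, 3.24 for PSAK and 2.77 for PSAN, against 1.25 for LHCA3 and PSAO and 1.26 for LHCB5.

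**Figure D2:**
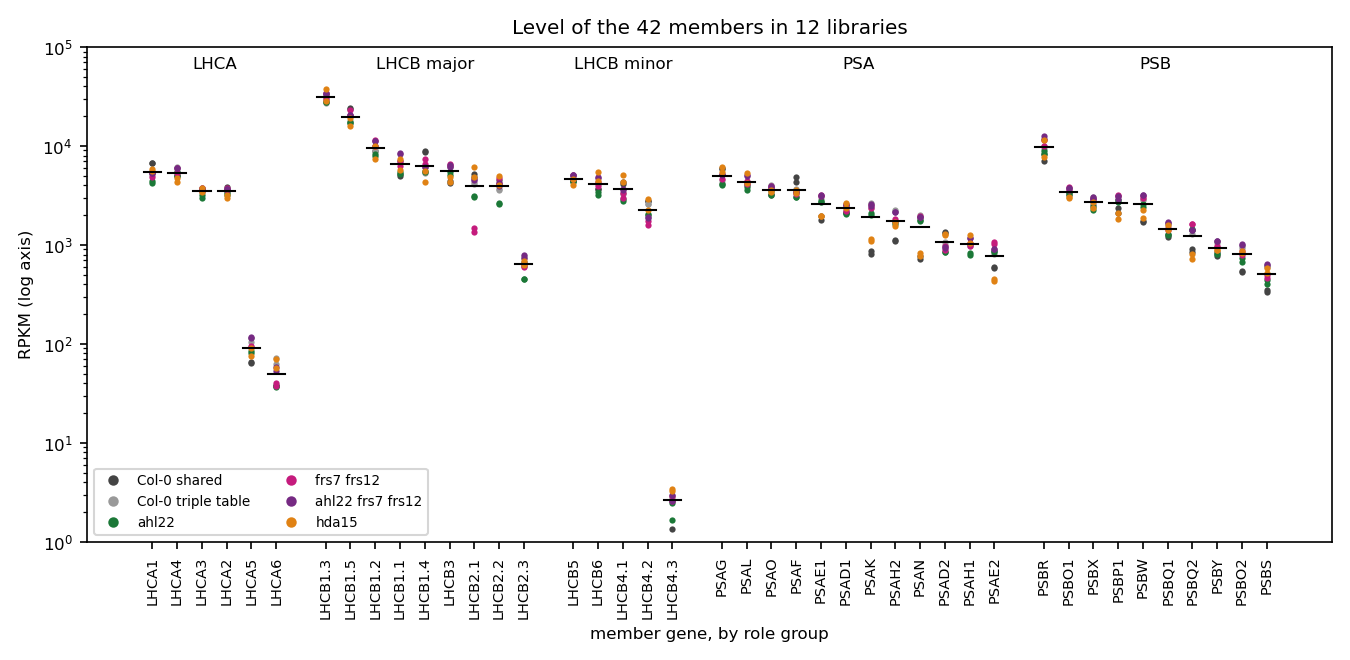
RPKM of the 42 members on a log axis by role group, with a point for each of the 12 libraries and a line at their mean. LHCB1.3 is highest at a mean of 31257 RPKM, LHCB4.3 lowest at 2.63 RPKM, and the points of LHCB2.1 spread most, by a ratio of 4.56.

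In ahl22, 6 of the 20 antenna genes were called lower against each of the Col-0 pairs, among them the 3 LHCB2 genes, whose proteins are the antenna subunits that are phosphorylated when light harvesting is shared between the photosystems. Against the shared Col-0 pair, 13 members were higher and 18 lower (27.9% and 29.8% of all genes were), and the median log2 fold change of the 42 members was 0.00, beside 0.02 for all genes. Against the second Col-0 pair, 0 members were higher and 20 lower (2.54% and 3.76% of all genes), with a median of -0.19 beside 0.00 for all genes. No member was higher than the second pair at an unadjusted p below 0.05 in edgeR or at an adjusted p in DESeq2 either. The number of members lower against both pairs was 9, compared with 2.06% of all genes: LHCA1, LHCB2.1, LHCB2.2, LHCB2.3, LHCB4.2, LHCB6, PSAD2, PSAH1 and PSBX. No member was higher against both pairs in edgeR's test (0 at an unadjusted p, 0 in DESeq2), as 1.19% of all genes were, and 6 members, LHCA5, LHCB3, PSAH2, PSAK, PSBO2 and PSBS, were higher than the shared pair and lower than the second (1.49% of all genes lay in this way on opposite sides).

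LHCB2.1 had 4397 and 4250 CPM in the ahl22 libraries, 6837 and 7264 CPM in the shared pair and 6110 and 5770 CPM in the second Col-0 pair. Both ahl22 values were below all 4 Col-0 values. The log2 fold change was -0.70 against the shared pair (standard error 0.06, adjusted p = 1.32e-12, edgeR) and -0.44 against the second (adjusted p = 0.000384, edgeR).

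LHCB2.2 had 3038 and 2964 CPM in ahl22, 4711 and 5214 CPM in the shared pair and 4133 and 4170 CPM in the second. It fell as LHCB2.1 did, by 0.72 (standard error 0.06) and 0.45 on the log2 scale (adjusted p = 1.66e-12 and 0.000258, edgeR), with no overlap of ahl22 and Col-0 libraries. LHCB2.3, the remaining LHCB2 gene, had 669 and 667 CPM in ahl22 against 902 and 980 CPM in the shared pair and 1080 and 1125 CPM in the second. Its log2 fold changes were -0.49 and -0.70 (adjusted p = 4.03e-08 and 2.12e-05, edgeR), but LHCB2.3 overlaps a gene on the opposite strand by 595 bases of annotated gene span, and reads of the pair may not be separated. LHCA1, an antenna protein of photosystem I, had 5626 and 5435 CPM in ahl22, 8468 and 8532 in the shared pair and 6498 and 6730 in the second, with log2 fold changes of -0.61 and -0.24 (adjusted p = 2.06e-11 and 0.015, edgeR). The groups did not overlap in LHCA1 either, although the Col-0 pairs differed from each other by -0.35.

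By role, LHCB major genes stood lowest against the shared pair, with 1 of 9 higher and 7 lower and a median of -0.46. The PSB genes lay on the other side, with 6 of 10 higher and 1 lower and a median of 0.24. Against the second pair the same groups had medians of -0.24 and -0.23, with 5 of 9 LHCB major and 5 of 10 PSB genes lower. The direction of the PSB genes thus depended on the Col-0 pair, while that of the LHCB2 genes did not. Without ahl22 replicate 1 the members lower against both pairs numbered 4 and without replicate 2 they numbered 3, which in each case included the 3 LHCB2 genes. Scaling by total counts, which moved the median of all genes by 0.21 against the shared pair, left 5: LHCA1, the 3 LHCB2 genes and LHCB4.2. With the 4 Col-0 libraries as 1 group, edgeR called 0 members higher and 0 lower (0.0907% and 0.106% of all genes), with 0 and 11 at an unadjusted p below 0.05. DESeq2 then called 5 lower: the 3 LHCB2 genes, LHCB4.2 and PSAD2. In that fit the log2 fold change of LHCB2.1 was -0.59 and that of LHCB2.2 -0.60 (adjusted p = 0.12 and 0.119, edgeR).

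In frs7 frs12, LHCB2.1 fell more than any other member in any comparison with Col-0, and its neighbour LHCB2.2 did not fall. LHCB2.1 had 2094 and 1894 CPM in the frs7 frs12 libraries, compared with 5770 to 7264 CPM in the 4 Col-0 libraries. These were the lowest values of LHCB2.1 in the 12 libraries, with ahl22 next at 4250 to 4397 CPM. The log2 fold change was -1.82 against the shared pair (standard error 0.09, adjusted p = 5.57e-14, edgeR) and -1.58 against the second (standard error 0.09, adjusted p = 4.23e-08, edgeR). LHCB2.2 had 5451 and 4850 CPM in frs7 frs12, with log2 fold changes of 0.05 (adjusted p = 0.641) and 0.31 (adjusted p = 0.0455, both edgeR). The frs7 frs12 values of LHCB2.2 overlapped those of the shared pair and lay above those of the second.

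The share of LHCB2.1 in the summed counts of LHCB2.1 and LHCB2.2 was 27.8% (exact binomial 95% interval 27.5 to 28.0%) and 28.1% (27.8 to 28.3%) in the frs7 frs12 libraries. It was 57.9% to 60.5% in the other 10 libraries, including those of ahl22 frs7 frs12, which carries the same frs7 and frs12 alleles by label. These intervals cover counting error only. Exons of the pair align with 94.3% identity over 1035 bases, so that reads can be assigned to either copy with error. Summed over both genes, the log2 fold change was -0.75 against the shared pair and -0.50 against the second (adjusted p = 3.82e-07 and 0.00272, edgeR).

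LHCB2.1 was also lower in frs7 frs12 than in ahl22 by 1.12 on the log2 scale (a difference of -1.12, standard error 0.09, adjusted p = 7.52e-08, edgeR). It was higher in ahl22 frs7 frs12 than in frs7 frs12, by 1.70 (standard error 0.09, adjusted p = 1.56e-10, edgeR), and had 6371 and 6579 CPM there. A fall of that size was not measured in ahl22 frs7 frs12, where LHCB2.1 differed from the second Col-0 pair by 0.11 (adjusted p = 0.156, edgeR) and from the shared pair by -0.12 (adjusted p = 0.0329, edgeR).

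Other genes near LHCB2.1 differed in frs7 frs12 as well. Of 83 tested genes that start within 500 kb, 28 (33.7%) were called in frs7 frs12 against the second Col-0 pair, 10 higher and 18 lower, compared with 6.76% of all genes. In the difference between ahl22 frs7 frs12 and frs7 frs12, 20 of 86 (23.3%) were called, compared with 3.55%. In ahl22 against the second pair the share was 8 of 82 (9.76%) beside 6.3%, and in ahl22 frs7 frs12 against the second pair 6 of 82 (7.32%) beside 6.27%. Against the shared Col-0 pair, 46 of 85 genes (54.1%) were called in frs7 frs12, as were 54.3% of all genes. The window was chosen after the values had been seen, and the part of this neighbourhood in the fall of LHCB2.1 was not tested.

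With LHCB2.1 included, 17 members were higher and 8 lower in frs7 frs12 against the shared pair (26% and 28.3% of all genes, median of members 0.17), and 3 were higher and 5 lower against the second (3.18% and 3.58%, median -0.01). Only PSAE2 (AT2G20260), a stromal subunit of photosystem I, was higher against both (1.83% of all genes were), at 647 and 625 CPM compared with 351 to 363 and 488 to 524 in the Col-0 pairs. Its libraries did not overlap with Col-0, and the log2 fold changes were 0.83 and 0.33 (adjusted p = 5.04e-09 and 0.0245, edgeR). Lower against both were LHCB2.1 and LHCB4.2 (2.14% of all genes were), under every scaling, in DESeq2 and with any library left out. They were also the members called with the 4 Col-0 libraries as 1 group, at -1.70 (adjusted p = 0.000227) and -0.71 (adjusted p = 0.0194, both edgeR), where 0.822% of all genes were lower. Of higher members that fit called 0 (0.559% of all genes), with 3 at an unadjusted p below 0.05 and 1, PSAE2, in DESeq2.

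**Figure D3:**
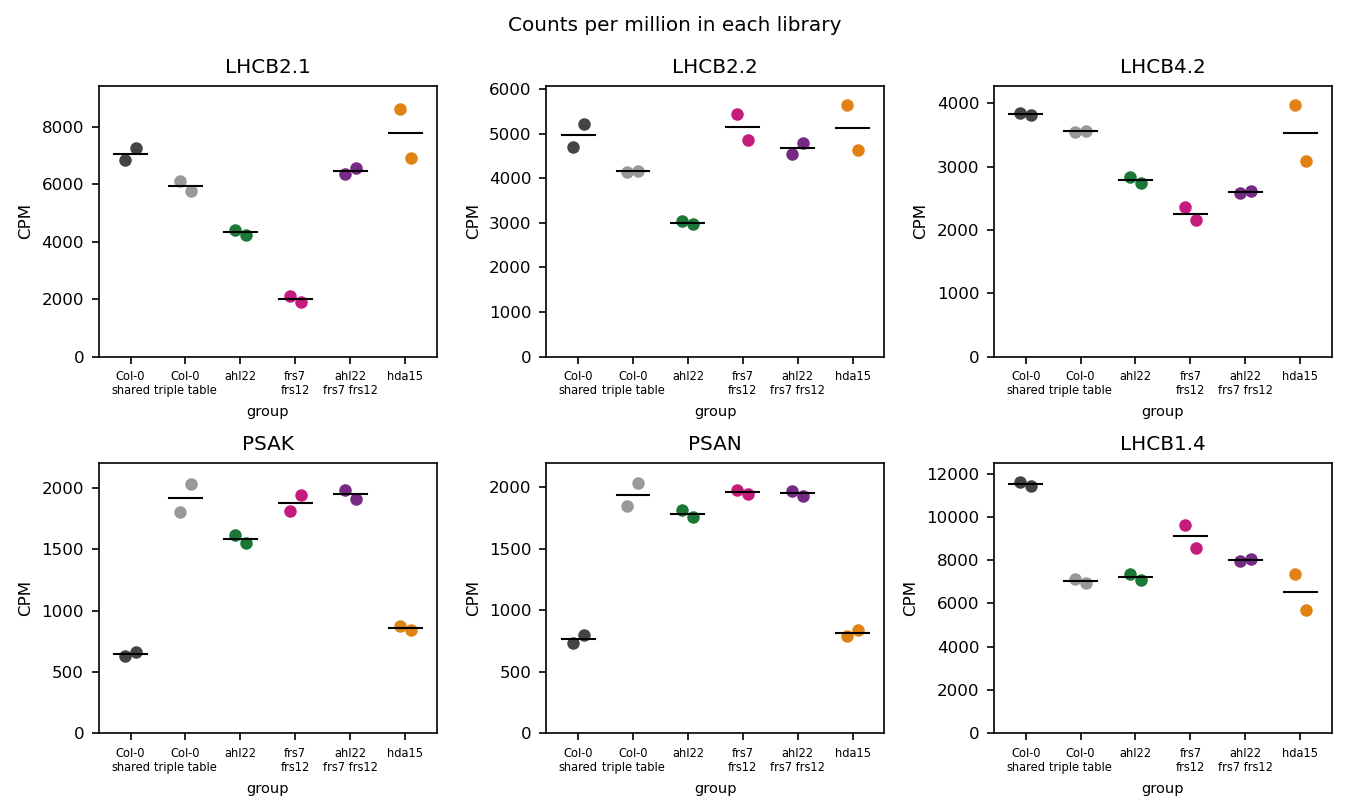
CPM of LHCB2.1, LHCB2.2, LHCB4.2, PSAK, PSAN and LHCB1.4 in each library by group, with a line at the group mean and axes from 0. LHCB2.1 is at 2094 and 1894 CPM in frs7 frs12, where LHCB2.2 is at 5451 and 4850 CPM, and PSAK and PSAN are low in hda15 and the shared Col-0 pair.

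LHCB4.2, an isoform of the monomeric antenna protein CP29, was lower than both Col-0 pairs in every mutant but hda15. It had 3842 and 3819 CPM in the shared pair and 3546 and 3562 CPM in the second, against 2835 and 2732 in ahl22, 2363 and 2149 in frs7 frs12 and 2585 and 2617 in ahl22 frs7 frs12. All 6 libraries of these mutants lay below all 4 Col-0 libraries. The log2 fold changes against the Col-0 pair of the table and the other pair were -0.45 and -0.33 in ahl22 (adjusted p = 3.78e-08 and 0.00244, edgeR). They were -0.76 and -0.66 in frs7 frs12 (adjusted p = 8.2e-08 and 0.000253, edgeR) and -0.47 and -0.56 in ahl22 frs7 frs12 (adjusted p = 1.32e-05 and 2.58e-12, edgeR).

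Among ahl22, frs7 frs12 and ahl22 frs7 frs12, LHCB4.2 did not differ at the threshold. The difference between frs7 frs12 and ahl22 was -0.30 (standard error 0.09, adjusted p = 0.0757), that between ahl22 frs7 frs12 and ahl22 -0.10 (adjusted p = 0.56) and that between ahl22 frs7 frs12 and frs7 frs12 0.21 (adjusted p = 0.266, all edgeR). In hda15, LHCB4.2 had 3976 and 3088 CPM, on either side of the 4 Col-0 values, with log2 fold changes of -0.11 and -0.01 (adjusted p = 0.615 and 0.967, edgeR). Both hda15 values of LHCB4.2 lay above those of ahl22, frs7 frs12 and ahl22 frs7 frs12. Its paralog LHCB4.1, which encodes the same kind of protein, was at 4104 and 3879 CPM in ahl22, lower than the shared pair by 0.55 on the log2 scale and not called against the second (log2 fold change -0.18, adjusted p = 0.0682, edgeR).

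LHCB4.2 is on chromosome 3, from 2717557 to 2718923, and FRS7, mutated in frs7 frs12 and ahl22 frs7 frs12, lies 825 kb away on the same chromosome. Of tested genes that start within 500 kb of LHCB4.2, 29 of 246 (11.8%) were called in frs7 frs12 against the second Col-0 pair (6.76% of all genes), and 30 of 244 (12.3%) in ahl22 frs7 frs12 (6.27%). In ahl22 against the second pair, 11 of 244 (4.51%) were called, compared with 6.3%. Against the shared pair, 51.2% were called in frs7 frs12 (54.3% of all genes) and 56.6% in ahl22 frs7 frs12 (56.5% of all genes). This window too was chosen after the values had been seen, and the part of the neighbourhood in the fall of LHCB4.2 was not tested.

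In ahl22 frs7 frs12, members were higher more often than lower, by small amounts. Against the second Col-0 pair, which is that of its table, 12 members were higher and 1 lower (3.4% and 2.88% of all genes), with a median of 0.06 beside -0.01 for all genes. Of the 12, 6 were LHCB major genes. Against the shared pair, 27 were higher and 9 lower (27.1% and 29.4% of all genes). The members higher against both numbered 7, compared with 2.4% of all genes: LHCB1.1, LHCB1.2, LHCB6, PSAH1, PSAL, PSBR and PSBW. LHCB4.2 alone was lower against both (2.01% of all genes).

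PSBR, which helps to hold the oxygen-evolving proteins on photosystem II, had 9325 and 9775 CPM in ahl22 frs7 frs12, against 7762 and 7306 in the second pair and 6553 and 5584 in the shared pair. These were the highest PSBR values of the 12 libraries. The log2 fold changes were 0.33 (standard error 0.04, adjusted p = 0.00031) and 0.66 (adjusted p = 8.31e-14, both edgeR).

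LHCB1.2, a major antenna gene, had 13828 and 13879 CPM in ahl22 frs7 frs12, against 11043 and 10879 in the second pair and 12160 and 10966 in the shared pair. It was above all Col-0 libraries, with log2 fold changes of 0.32 and 0.26 (adjusted p = 4.04e-05 and 6.64e-06, edgeR), and it was called with any library left out. LHCB1.1, LHCB1.2 and LHCB1.3 share stretches of 91.7% to 93.6% identity, and their sum differed by 0.27 and 0.20 (adjusted p = 8.01e-05 and 2.29e-05, edgeR).

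The counts of higher members depended on the scaling and on single libraries. Scaling by total counts moved the median of all genes in this comparison by -0.08, and 5 members were then higher and 2 lower, with 3 higher against both Col-0 pairs. Against the second pair, 21 members were higher without its library b, 3 without ahl22 frs7 frs12 replicate 1 and 1 without replicate 2, and those higher against both pairs numbered 12, 2 and 1. With the 4 Col-0 libraries as 1 group, edgeR called 0 members higher and 0 lower (0.499% and 0.625% of all genes), with 8 and 2 at an unadjusted p below 0.05. DESeq2 then called 0 higher and 1, LHCB4.2, lower, at a log2 fold change of -0.51 (adjusted p = 0.0785, edgeR). LHCA6, a linker of photosystem I and the NDH complex, had the largest fall after LHCB4.2, at 68.2 and 61.8 CPM against 72.1 and 83.5 in the second pair, and did not pass the test (log2 fold change -0.27, adjusted p = 0.118, edgeR).

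**Figure D4:**
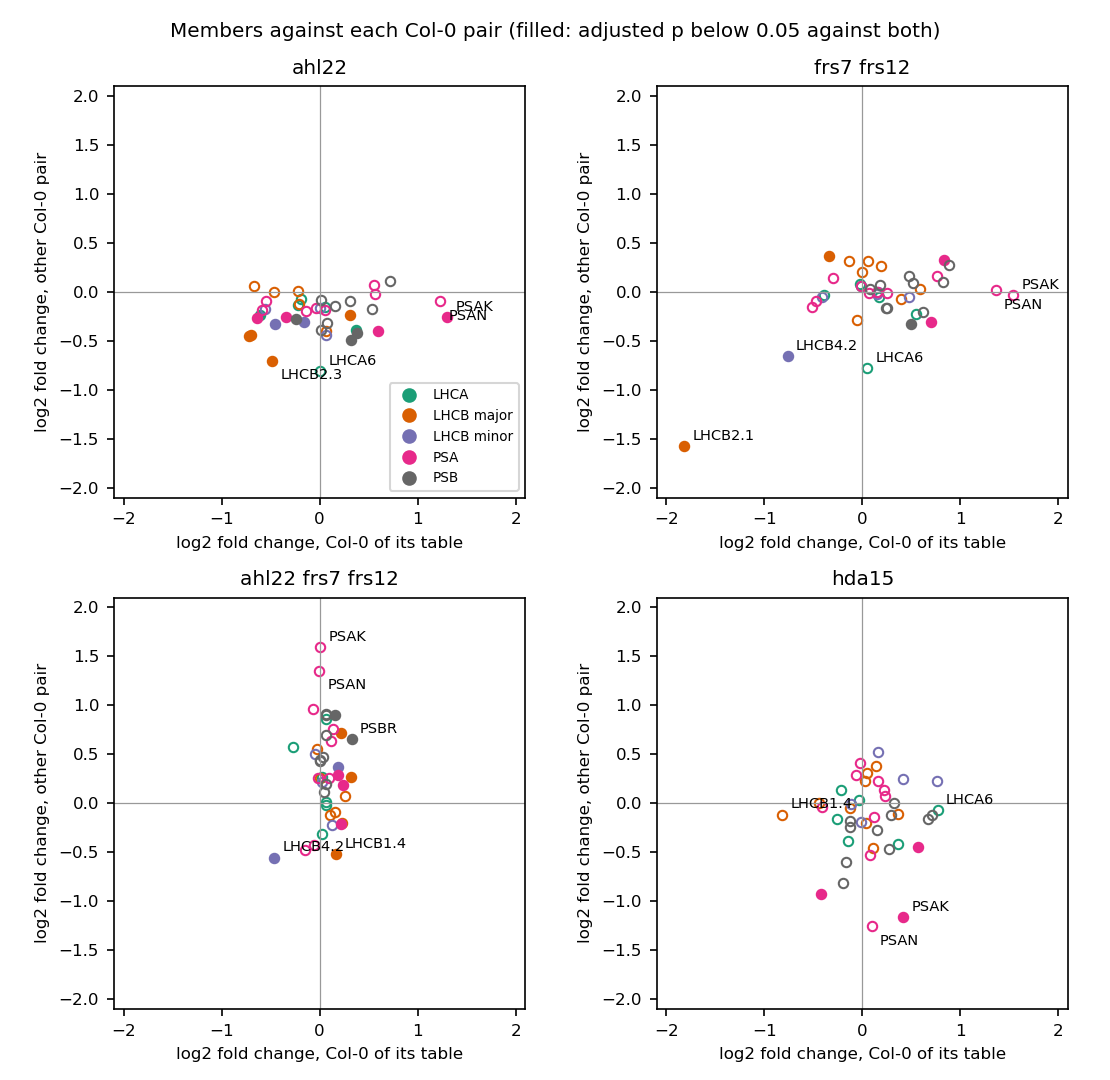
Log2 fold change of the 42 members in the mutants, relative to the Col-0 pair of the same table (x axis) and against the other Col-0 pair (y axis), coloured by role group, with filled points for members called against both. LHCB2.1 in frs7 frs12, at -1.82 and -1.58, lies farthest out among points on the same side of 0 on both axes.

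The mutants were also compared with each other in a fit of all 12 libraries over 19841 genes, which does not use Col-0 as a reference. In ahl22 frs7 frs12, 26 members were higher than in ahl22 and 0 lower (7.37% and 4.37% of all genes; 33 and 0 at an unadjusted p below 0.05 and 25 and 0 in DESeq2), with a median of 0.32 beside 0.02 for all genes. They comprised 4 of 6 LHCA, 7 of 9 LHCB major, 2 of 5 LHCB minor, 6 of 12 PSA and 7 of 10 PSB genes. LHCB2.3 had the largest difference, at 1084 and 1155 CPM against 669 and 667 in ahl22 (log2 difference 0.74, standard error 0.08, adjusted p = 3.56e-06, edgeR). PSBS, the sensor protein of non-photochemical quenching, was at 1169 and 1146 CPM against 797 and 735 (log2 difference 0.60, adjusted p = 6.33e-05, edgeR). With total counts 14 members were higher and 1 lower. The number higher was 16 without ahl22 replicate 1 and 9 without replicate 2, and 10 and 11 without ahl22 frs7 frs12 replicates 1 and 2.

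In frs7 frs12, 11 members were higher than in ahl22 and 1, LHCB2.1, lower (2.6% and 1.79% of all genes), with a median of 0.21. LHCB2.2 differed in the opposite direction to LHCB2.1, by 0.78 (standard error 0.09, adjusted p = 1.11e-05, edgeR). The count of higher members depended on single libraries and on the processing. It was 1 without either ahl22 library or without frs7 frs12 replicate 1, 4 without frs7 frs12 replicate 2, 3 with a minimum of 10 counts in every library and 19 when only the 4 libraries concerned were fitted. Between ahl22 frs7 frs12 and frs7 frs12, 4 members were higher, LHCA6, LHCB2.1, LHCB2.3 and PSBS, and 0 lower (1.83% and 1.72% of all genes). At an unadjusted p below 0.05 in edgeR's test 15 were higher and 2 lower, and DESeq2 called 7 higher and 0 lower. The number higher was 2 without frs7 frs12 replicate 1, and 1 without frs7 frs12 replicate 2 or either ahl22 frs7 frs12 library.

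In hda15, few members differed from both Col-0 pairs. Against the shared pair, 6 members were higher and 4 lower (13.3% and 12.4% of all genes), with a median of 0.09, and against the second, 2 were higher and 10 lower (16.7% and 11.4%), with a median of -0.12. No member was higher against both in edgeR's test (0 at an unadjusted p below 0.05, 0 in DESeq2), as 4.52% of all genes were, and PSAE2 alone was lower against both (2.41% of all genes). PSAE2 had 273 and 260 CPM in hda15, below 351 and 363 in the shared pair and 488 and 524 in the second, and no library overlapped. Its log2 fold changes were -0.42 and -0.93 (adjusted p = 0.0204 and 0.000259, edgeR). With the 4 Col-0 libraries as 1 group, PSAE2 at -0.70 (adjusted p = 0.0358, edgeR) was the single lower member (2.2% of all genes were lower). That fit called 0 members higher (3.29% of all genes), with 2 at an unadjusted p below 0.05 and 1, LHCB6, in DESeq2. Without either library of the shared pair, PSAE2 was no longer called against both pairs in hda15. In frs7 frs12, the rise was lost without replicate 1 or without library a of the second Col-0 pair. By these values PSAE2 was lower in hda15 and higher in frs7 frs12 than in either Col-0 pair, and hda15 minus frs7 frs12 was -1.25 (standard error 0.08, adjusted p = 1.17e-10, edgeR). However, PSAE2 was at 260 to 363 CPM in hda15 and the shared pair, and at 488 to 647 CPM in the second pair and the other mutants. PSAK and PSAN, described below, split the libraries in the same way. The part of this split in the difference of -1.25 was not tested.

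Compared with the other mutants, hda15 had 19 members higher and 8 lower than ahl22 (24.8% and 19.5% of all genes), with a median of 0.17. Scaling by total counts turned this to 10 higher and 17 lower, with a median of -0.08, and without ahl22 replicate 2 the number higher was 11. It had 7 higher and 14 lower than frs7 frs12 (24% and 20% of all genes, median -0.07; 22 lower with total counts, 12 higher without hda15 replicate 2) and 4 higher and 23 lower than ahl22 frs7 frs12 (21.6% and 17.9% of all genes, median -0.23). Of the 23, 8 were among the 10 PSB genes and 6 among the 9 LHCB major genes. Without replicate 1 or 2 of ahl22 frs7 frs12 the number lower was 14 and 13, and without hda15 replicate 2 it was 13, with 8 higher.

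LHCA6 had the largest rise in hda15, at 81.6 and 66.6 CPM against 43.4 and 43.9 in the shared pair (log2 fold change 0.77, standard error 0.14, adjusted p = 0.000888, edgeR), but 72.1 and 83.5 CPM in the second pair (log2 fold change -0.07). LHCB1.4 had the largest fall, at 7344 and 5677 CPM against 11620 and 11428 in the shared pair (log2 fold change -0.82, adjusted p = 0.00124, edgeR), and 7134 and 6963 CPM in the second (log2 fold change -0.12, adjusted p = 0.611, edgeR). LHCB1.5, its neighbour and close copy, had 20116 and 16574 CPM in hda15 against 24511 and 25387 in the shared pair and 18736 and 17878 in the second, with log2 fold changes of -0.44 (adjusted p = 0.0473, edgeR) and 0.00. Each of these 3 genes therefore differed from the shared pair alone. LHCB4.3 rose by 0.76 without passing the test (adjusted p = 0.0899, edgeR), from 3.72 and 1.96 CPM to 4.97 and 4.71. The hda15 replicates differed in the LHCB genes, with LHCB1.3 at 45803 and 35245 CPM. Without hda15 replicate 2 the number higher against the shared pair was 17 and without replicate 1 the number lower was 10.

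PSAK and PSAN separated hda15 and the shared Col-0 pair from the other 8 libraries, as did other members. The split was not particular to the members. Over all genes that passed the filter, log2 CPM of ahl22 1 correlated at 0.988 with second Col-0 b and at 0.928 with shared Col-0 1. For hda15 1 the correlation was 0.963 with shared Col-0 1, 0.953 with second Col-0 a and 0.936 with ahl22 1. PSAE1 had 1424 to 1568 CPM in hda15 and the shared pair and 2148 to 2559 CPM in the other 8 libraries. PSBQ2 had 917 to 1156 and 1621 to 2060 CPM in these sets. PSBP1, LHCB3, PSAE2 and PSBW also split in this way, without overlap. PSAK, a membrane subunit on the side of photosystem I opposite to PSAG, had 878 and 840 CPM in hda15 and 628 and 664 CPM in the shared Col-0 pair. In the other 8 libraries it had 1550 to 2035 CPM, with 1805 and 2035 in the second Col-0 pair. Its log2 fold change was 1.299 in ahl22 (adjusted p = 1.21e-19) and 1.54 in frs7 frs12 (adjusted p = 2.79e-13) against the shared pair, and -0.26 (adjusted p = 0.0339) and -0.03 (adjusted p = 0.897, all edgeR) against the second.

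PSAN, a lumenal subunit near the plastocyanin site, had 734 and 795 CPM in the shared pair, 789 and 841 CPM in hda15 and 1759 to 2032 CPM in the other 8 libraries. Between the Col-0 pairs the log2 difference, second minus shared, was 1.58 for PSAK (standard error 0.08, adjusted p = 2e-09, edgeR) and 1.35 for PSAN (standard error 0.08, adjusted p = 9.57e-09, edgeR). LHCB1.4 and LHCB1.5 lay on the other side, at -0.70 and -0.44 (adjusted p = 9.59e-07 and 7.11e-05, edgeR). In all, 22 members were higher and 10 lower in the second pair (23.5% and 25.4% of all genes), with 8 of 10 PSB genes higher, and 3 of 9 LHCB major genes higher and 5 lower. The low PSAK and PSAN libraries are also those with the highest root marker sums, at 253.1 to 325.1 CPM. Of these, hda15 had the lowest evening clock sum and the highest shoot marker and Calvin-Benson cycle sums (59450 to 63090 CPM) of the 6 groups, and the shared Col-0 pair had the highest evening clock sum. The part of these differences in the PSAK and PSAN values was not tested. PSAK and PSAN were among the 22 members lower in the shared pair, where 10 others were higher than in the second. Of these, LHCA1 had 8468 and 8532 CPM in the shared pair against 6498 and 6730 in the second. PSAG had 4600 and 4676 against 3518 and 3309. Members together held 20.22% and 20.01% of counts in the shared pair, 20.71% and 20.68% in the second and 19.6% and 17.74% in hda15. The parts of green cell number and of RNA level per green cell in the PSAK and PSAN values were not tested.

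**Figure D5:**
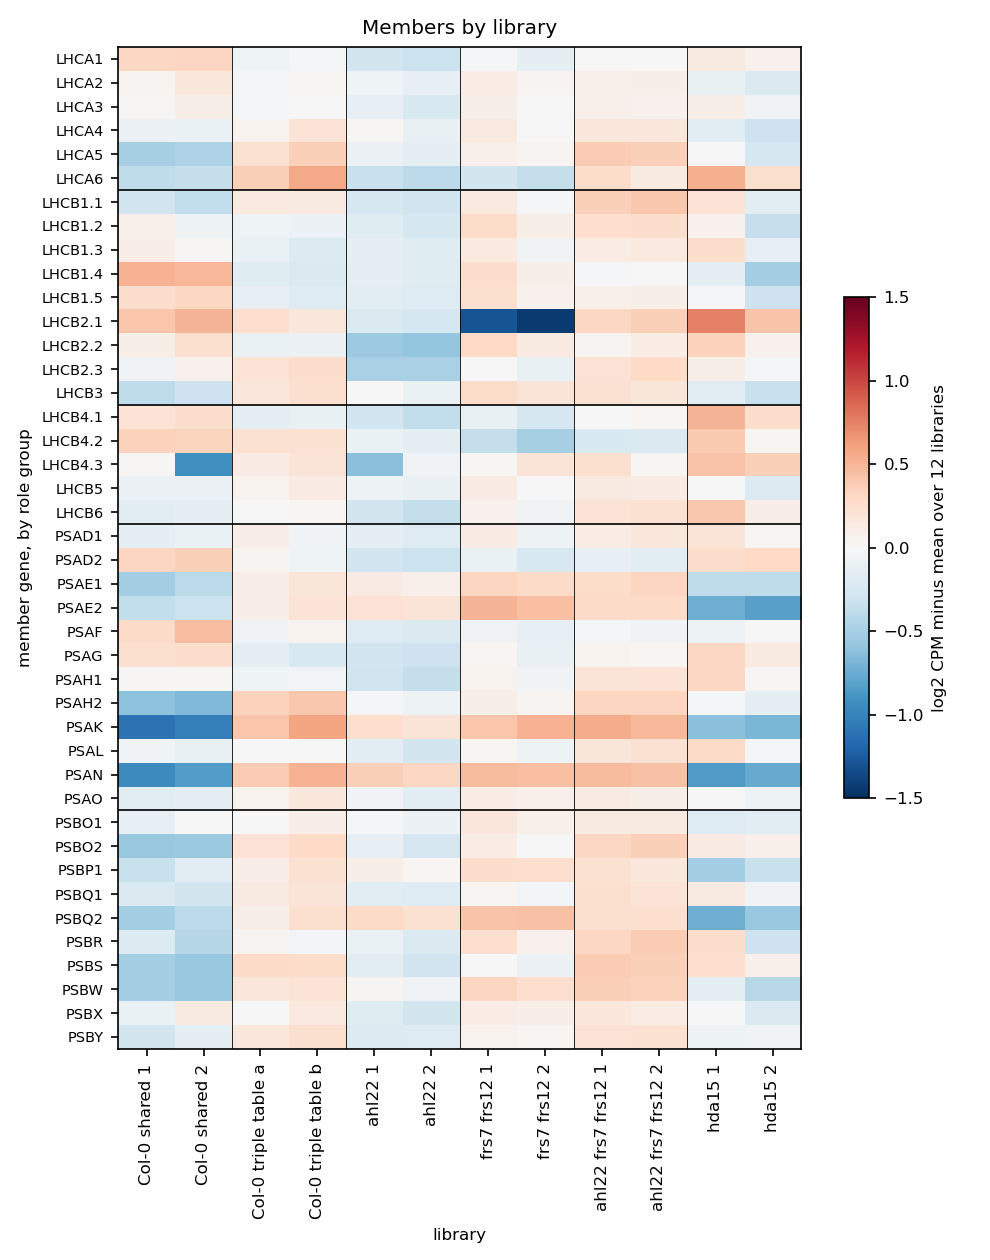
Log2 CPM of each of the 42 members (rows) in each of the 12 libraries (columns), minus the mean of that member over the libraries. PSAK and PSAN are low in hda15 and the shared Col-0 pair, LHCB2.1 is low in frs7 frs12, and the LHCB2 genes are low in ahl22.

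The highest member of each role group varied less. LHCB1.3 had 34510 and 33817 CPM in ahl22, 41098 and 38686 in the shared pair and 35812 and 33287 in the second, with log2 fold changes of -0.22 (adjusted p = 0.00118) and 0.00 (adjusted p = 0.975, both edgeR). LHCB5 ranged from 5622 to 7096 CPM over all libraries and was not called against the Col-0 pair of the same table in any mutant. PSAG had 3193 and 3123 CPM in ahl22, below 4600 and 4676 in the shared pair (log2 fold change -0.55, adjusted p = 4.98e-10, edgeR) and not called against 3518 and 3309 in the second (-0.09, adjusted p = 0.407, edgeR).

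Lists of other chloroplast genes were counted in the same fits. Where edgeR's test called 0 genes of a list, the number at an unadjusted p below 0.05 and the number called by DESeq2 follow in brackets. Of 20 Calvin-Benson cycle genes, 5 were higher and 12 lower in ahl22 against the shared pair (27.9% and 29.8% of all genes), and 0 were higher (0 and 0) and 12 lower against the second (2.54% and 3.76% of all genes, median log2 fold change -0.40 beside -0.19 for the members). The largest falls against the second pair were those of FBA1 (-0.83), RBCS1B (-0.77) and GAPA2 (-0.68), enzymes of carbon fixation (adjusted p = 1.9e-05, 6e-06 and 3.8e-05, edgeR). In ahl22 frs7 frs12, 9 were higher and 0 lower (0 and 0) against the second pair (3.4% and 2.88% of all genes), led by RPI3 at 0.53 (adjusted p = 0.00017, edgeR). Against the shared pair, DESeq2 called 16 higher and 3 lower in ahl22 frs7 frs12. The shares of all genes there, 27.1% and 29.4%, are from edgeR and are not a like measure. Against ahl22, 15 of the 20 were higher and 0 lower (0 and 0) in that mutant (7.37% and 4.37% of all genes).

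Of 24 chlorophyll synthesis genes, 1 was higher and 5 lower in ahl22 against the second pair (2.54% and 3.76% of all genes), 1 and 3 in frs7 frs12 (3.18% and 3.58%) and 0 (0 and 0) and 13 in hda15 (16.7% and 11.4%). Against the shared pair, 9 were higher and 6 lower in ahl22 (27.9% and 29.8% of all genes), 10 and 4 in frs7 frs12 (26% and 28.3%) and 1 and 4 in hda15 (13.3% and 12.4%). PORB, which reduces protochlorophyllide in light, fell by 2.18 on the log2 scale in hda15 against the shared pair (adjusted p = 4.2e-08, edgeR). Of 13 electron transport and ATP synthase genes, 6 were lower and 1 higher in ahl22 against the second pair (3.76% and 2.54% of all genes), led by the ferredoxin FD1 (-0.92, adjusted p = 7.5e-06, edgeR), but 9 were higher and 2 lower against the shared pair (27.9% and 29.8%). Of 17 regulators of photosynthesis genes, 1, BBX22, was higher in ahl22 against the second pair (0.78, adjusted p = 0.00018, edgeR). Lower regulators numbered 0 (4 and 0), where 2.54% of all genes were higher and 3.76% lower. The remaining 16 of 17 regulators, GLK1 and GLK2 among them, did not pass the test against the second pair. With 2 libraries per group, this does not show that they were unchanged. With the shared pair as reference, DESeq2 called 6 of the 17 higher in ahl22 and 5 lower. At an unadjusted p below 0.05 in edgeR, 8 were higher and 5 lower. The shares of all genes there, 27.9% and 29.8%, are from edgeR at an adjusted p and are not a like measure. Of 11 photosystem genes of the chloroplast genome, 9 were higher and 0 lower (0 and 0) in hda15 against either Col-0 pair (13.3% and 16.7% of all genes were higher, medians of the list 1.21 and 0.87). DESeq2 called 7 higher against either pair. The summed level of the list differed between the hda15 replicates (1277 and 719.8 CPM). It also differed within the shared pair (307.1 and 500.4), the second pair (340.9 and 581) and ahl22 frs7 frs12 (431.8 and 808.1). In ahl22 (485 and 476.8) and frs7 frs12 (561.2 and 520.1) the replicates were closer.

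With 2 libraries per group, p-values measure the spread between these libraries. The labels call the libraries they list biological replicates, but the columns of the second Col-0 pair match none of them. Of the 42 members, 8 have another copy with at least 90% identity and 16 overlap another gene, among them PSAH1 by 788 bases. Values of these members are uncertain to the extent that reads were placed on the wrong copy or strand.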

How the data were processed

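RNA-seq was performed by the authors on whole seedlings of Col-0 and 4 mutants. They placed read pairs on TAIR10 by HISAT2 and used Subread to count reads in each gene. Raw counts of 27416 genes were deposited in 4 tables without normalization. No version is given in the labels, and whether counting used strand is not given in the sources used here. The study gives 23 °C and plates for growth and a VAHTS kit, whereas the labels give 22 °C, soil and a NEBNext kit. MAR-seq data were not analysed here.

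Each group was compared with R 4.3.3 and edgeR 4.0.16 (TMM, filterByExpr, quasi-likelihood test, Benjamini-Hochberg adjustment over all genes tested). A gene was called at an adjusted p below 0.05. Mutants were compared with each other in a fit of 6 groups. CPM were scaled by TMM over all libraries, and RPKM used exon lengths of TAIR10.1 for 26714 genes. The test was checked on simulated data. Copies were found with blastn 2.17.0 and upstream windows were read with Biopython 1.88. Members and lists were chosen with earlier results of these data known, and counts against both Col-0 pairs and the 500 kb windows after their values had been seen. Values per library are given for the highest member of each role group and for the 2 largest rises and 2 largest falls in each comparison of a mutant, or of the second Col-0 pair, with Col-0. Of each other list, at most 3 genes are named, those called with the largest change. LHCB2.3, LHCB4.1, PSAE2 and PSBS were added after their values had been seen. Alternatives were RLE, upper-quartile and total-count scaling, DESeq2 1.42.0, other filters, a fold threshold, near-identical members summed, other sets of libraries, the replicate number as a block and leaving out each library.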

Additional observations from a re-analysis of the deposited data

Results flagged for a closer look

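LHCB1.2, a gene of the major photosystem II antenna, had 12160 CPM in library 1 of the shared Col-0 pair and 10966, 11043 and 10879 CPM in the other 3 Col-0 libraries. The gap between the highest value and the next was 0.872 of the whole range, above the 95% critical value of Dixon's test for 4 samples. It was the only flag among 16 groups of 4 Col-0 values tested. Chance flags about 1 in 20 where the 4 values come from a single population. The Col-0 pairs stood apart, so that rate need not hold here.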

How the results depend on the processing

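Several direction and count statements depended on the Col-0 pair. With only 2 libraries per group, which limits every count, leaving out a library leaves a lone sample that is assumed to vary like the other groups. Depth limits LHCB4.3 (at least 24 counts) more than any other member. Deviations of same-numbered samples correlated at 0.157 between hda15 and the shared Col-0 pair, at 0.196 between hda15 and frs7 frs12 and at -0.0195 to 0.0672 in the other 8 pairs of groups, so that the numbers were not taken to pair the samples, and the fit with the replicate number as a block gave 2 members lower in frs7 frs12 minus ahl22 and 8 higher in ahl22 frs7 frs12 minus frs7 frs12, and it moved no other count of members by more than 1.5 times. The Col-0 columns of the ahl22 frs7 frs12 table carry no replicate number, so that comparisons with them could not have a block. The causes of the changes below were not tested. Counts are given as members higher and members lower, gene values and medians as log2 fold changes, against the Col-0 pair of the table unless said otherwise.

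With the 4 Col-0 libraries as 1 group, ahl22 had 0 and 0 members called and a median of -0.17, with LHCB5 at -0.10 and PSBR at -0.013. frs7 frs12 had 0 and 2 and a median of 0.072, with LHCB1.3 at 0.094. ahl22 frs7 frs12 had 0 and 0 and a median of 0.19, with LHCA1 at -0.15, PSAG at -0.0068 and LHCA6 at 0.10. hda15 had 0 and 1 and a median of -0.058, with PSAG at 0.18.

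With the other Col-0 pair, ahl22 had 0 members higher and a median of -0.19, with LHCB1.3 at 0.0040, LHCB5 at -0.16, PSBR at -0.14, PSAK at -0.26 and PSAN at -0.10. frs7 frs12 had 3 and 5 and a median of -0.0080, with LHCB1.3 at 0.20, LHCB5 at -0.022, PSAG at 0.14 and PSAK at -0.033. ahl22 frs7 frs12 had 27 and 9 and a median of 0.26, with LHCA1 at -0.32, PSAG at -0.21 and LHCA6 at 0.58. hda15 had 2 and 10 and a median of -0.12, with LHCA1 at 0.14, PSAG at 0.41, LHCA6 at -0.070 and LHCB1.5 at 0.0011.

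DESeq2 gave LHCB5 -0.012 in ahl22, 2 members lower in frs7 frs12 minus ahl22, 7 higher in ahl22 frs7 frs12 minus frs7 frs12 and 2 higher than both Col-0 pairs in frs7 frs12. RLE scaling gave LHCB5 -0.014 in ahl22 and 5 members higher in frs7 frs12 minus ahl22. The fit of all 12 libraries as 6 groups gave LHCB5 -0.0059 in ahl22, 0 members higher in ahl22 frs7 frs12 and 10 higher in hda15. A minimum of 10 counts in every library gave LHCB5 -0.012 in ahl22, 2 lower in hda15 and 3 higher in frs7 frs12 minus ahl22. Without a filter, 10 were higher in hda15 and 2 lower in frs7 frs12 minus ahl22. With near-identical members summed, frs7 frs12 minus ahl22 had 7 and 0.

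With an absolute log2 fold change above 1 as a further threshold, 2 and 0 members were called in ahl22, 0 and 0 in hda15 and ahl22 frs7 frs12, 2 and 1 in frs7 frs12, and 3 and 0 between the Col-0 pairs. Between mutants, 0 were higher in frs7 frs12 minus ahl22, 0 in ahl22 frs7 frs12 minus ahl22 and 1 in ahl22 frs7 frs12 minus frs7 frs12, and hda15 had 0 and 1 against ahl22, 1 and 4 against frs7 frs12 and 0 and 3 against ahl22 frs7 frs12. With only the 4 libraries compared, frs7 frs12 minus ahl22 had 19 and 2, ahl22 frs7 frs12 minus ahl22 had 1 lower, ahl22 frs7 frs12 minus frs7 frs12 had 14 and 3, and hda15 had 12 higher against ahl22, 9 lower against frs7 frs12 and 15 lower against ahl22 frs7 frs12.

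Scaling by total counts moved the median of all genes by 0.21 in ahl22, -0.154 in hda15 against the other pair and -0.175 in ahl22 frs7 frs12 minus ahl22. The share of higher genes among all those called went from 48.3% to 63.2% in ahl22 (40.4% to 67.3% against the other pair) and from 54.2% to 33.7% in ahl22 frs7 frs12. Members gave 21 higher and a median of 0.19 in ahl22, a median of 0.24 with LHCB1.3 at 0.072 in frs7 frs12, 5 and 2 with a median of -0.0084, LHCA1 at -0.044 and LHCB5 at -0.049 in ahl22 frs7 frs12, LHCB1.3 at -0.037 in hda15 and a median of 0.29 between the Col-0 pairs. frs7 frs12 minus ahl22 had 4 and 2 and a median of 0.094, ahl22 frs7 frs12 minus ahl22 had 14 and 1 and a median of 0.13, ahl22 frs7 frs12 minus frs7 frs12 had 2 lower and a median of -0.0044, hda15 minus ahl22 had 10 and 17 and a median of -0.083, and hda15 minus frs7 frs12 had 22 lower. Against both Col-0 pairs, 1 and 5 were called in ahl22, 3 and 2 in ahl22 frs7 frs12, 3 higher in frs7 frs12 and 2 lower in hda15. Upper-quartile scaling gave medians of 0.10 in ahl22, 0.25 in frs7 frs12 (with LHCB1.3 at 0.077) and 0.28 between the Col-0 pairs, and 6 and 2 in frs7 frs12 minus ahl22.

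With each library left out in turn, LHCB1.3 was at -0.10 to 0.093 in frs7 frs12 and -0.18 to 0.20 in hda15. LHCB5 was at -0.021 to 0.029 in ahl22, -0.0072 to 0.058 in ahl22 frs7 frs12 and -0.12 to 0.089 in hda15, and PSAG at -0.12 to 0.061 in hda15. The median was -0.052 to 0.0089 in ahl22, 0.17 to 0.25 between the Col-0 pairs, 0.28 to 0.32 in ahl22 frs7 frs12 minus ahl22 and -0.29 to -0.10 in hda15 minus ahl22 frs7 frs12. Members numbered 1 to 21 higher and 1 to 3 lower in ahl22 frs7 frs12 and 1 to 17 higher and 1 to 10 lower in hda15. Against both Col-0 pairs they numbered 0 to 1 higher and 3 to 12 lower in ahl22, 0 to 2 higher in frs7 frs12, 1 to 12 higher and 1 to 2 lower in ahl22 frs7 frs12 and 0 to 7 higher and 0 to 5 lower in hda15. Between mutants, 9 to 16 were higher in ahl22 frs7 frs12 minus ahl22, 1 to 2 in ahl22 frs7 frs12 minus frs7 frs12, 1 to 4 in frs7 frs12 minus ahl22, 11 to 21 in hda15 minus ahl22, 5 to 12 in hda15 minus frs7 frs12 and 3 to 8 in hda15 minus ahl22 frs7 frs12, where 13 to 27 were lower.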
